A study of Mus musculus with 15 samples.

Results

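ACF1, the product of Baz1a, is the larger, non-catalytic subunit of the ACF remodelling complex, in which the ATPase SNF2H slides nucleosomes along DNA and sets them at regular spacing. Changes in nucleosome spacing alter which DNA is open to other proteins. The nucleus accumbens, studied here, is a forebrain region of reward and motivation, made up mostly of medium spiny neurons.

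The regions described here are the stretches of autosomal DNA that carried the ACF1 state in control mice and in neither group of socially defeated mice. They were chosen by the segmentations themselves: a control segment was kept when no segment of the susceptible or of the resilient list lay within 1000 bp of it. Of the 631 autosomal control segments, 320 met this rule (50.7%), out of 2208 autosomal segments in the 3 lists together. Because the 3 lists chose the regions, their number, their widths and their distances from the other lists are descriptions and carry no test.

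All groups were C57BL/6 mice with no engineered allele in the labels. Susceptible and resilient mice had met aggressive CD1 mice on 10 days of chronic social defeat. They were grouped by behaviour after a social interaction test, held 24 h after the last defeat. Their tissue was taken 48 h after the last defeat. In this paradigm, susceptible mice are those that avoid an unfamiliar mouse. Controls carry the label Control, with no account of their handling. For each library, accumbens punches of 10 mice were pooled. The labels speak of triplicates, but no replicate library can be told apart in the deposited results: there was 1 ACF1 list per group and 1 table of H3 occupancy changes and 1 of H3 shifts per pair of groups, so no value below has a spread over animals. The files hold a state label or a selected position and no read counts, so the depth is unknown. Each ACF1 list splits the genome, on a grid of 200 bp, between a state E1 and a state E2. E2, the state of short stretches, is called a segment, although no file says which state stands for binding. A segment missing from a list is a label, not a measured level of 0, and in bulk tissue fewer cells with ACF1 and less ACF1 per cell cannot be told apart. No RNA was measured, so the cell types could not be checked against markers.

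Coordinates are on mm9, the build of the files, counted from 1. Genes are those that the H3 tables name with their bounds, 7787 on the autosomes. A gene that holds no listed H3 position is not in that set, so a segment outside the named genes may still lie in a gene, and exons, introns and UTRs could not be told apart. Up in an H3 table was read as higher in the group named first; the files do not say so, and with the opposite reading each direction below turns round.

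Among the 320 control-only segments, 2 contained the annotated start of a named gene. The first was Ikbke, which encodes IKK-epsilon, a kinase that switches on interferon and NF-kB signalling. The second was Gm1966. The widest control-only segment of all lay just upstream of another gene start, that of Tnn, which encodes the extracellular matrix protein tenascin-N. In 2610028E06Rik, a non-coding RNA gene in RefSeq, the segment lay 154 bp inside the start. The promoters of these 4 genes are printed here to show the DNA at, or close to, a control-only segment. Those of Tnn and 2610028E06Rik hold 0 bases of the segment itself, and that of Sbno2, which had 3 RefSeq entries, is not shown. They are RefSeq sequences on GRCm38.p6, matched by symbol, from 250 bases before to 50 after the gene start, written 5′ to 3′ along the gene with each CG dinucleotide in capitals.
Ikbke: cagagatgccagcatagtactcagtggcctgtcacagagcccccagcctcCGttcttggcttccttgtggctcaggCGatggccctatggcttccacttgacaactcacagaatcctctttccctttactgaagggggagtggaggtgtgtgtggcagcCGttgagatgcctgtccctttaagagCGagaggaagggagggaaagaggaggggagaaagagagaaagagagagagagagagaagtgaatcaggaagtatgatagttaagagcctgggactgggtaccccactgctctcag
Gm1966: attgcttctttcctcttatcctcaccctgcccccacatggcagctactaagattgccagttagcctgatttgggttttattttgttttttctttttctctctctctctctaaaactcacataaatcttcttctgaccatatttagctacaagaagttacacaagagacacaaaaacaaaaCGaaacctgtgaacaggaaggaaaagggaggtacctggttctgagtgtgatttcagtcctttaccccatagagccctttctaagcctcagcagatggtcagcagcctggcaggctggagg
Tnn: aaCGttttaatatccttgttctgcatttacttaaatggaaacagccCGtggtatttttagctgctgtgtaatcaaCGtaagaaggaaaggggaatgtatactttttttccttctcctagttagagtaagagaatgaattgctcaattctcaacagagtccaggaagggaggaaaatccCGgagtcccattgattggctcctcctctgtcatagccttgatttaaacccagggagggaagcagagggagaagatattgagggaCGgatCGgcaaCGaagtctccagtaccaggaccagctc
2610028E06Rik: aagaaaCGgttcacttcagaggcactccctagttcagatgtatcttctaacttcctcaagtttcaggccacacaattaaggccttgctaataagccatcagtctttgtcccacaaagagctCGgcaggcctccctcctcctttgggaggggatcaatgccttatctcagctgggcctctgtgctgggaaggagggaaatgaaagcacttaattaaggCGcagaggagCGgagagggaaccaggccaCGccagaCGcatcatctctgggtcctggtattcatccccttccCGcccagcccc

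The Ikbke promoter held 4 CG dinucleotides and was 54.0% G and C, that of Gm1966 held 1 and was 43.7% G and C, that of Tnn held 7 and was 44.3%, and that of 2610028E06Rik held 7 and was 53.7%. The medians over all 32851 RefSeq promoters of 300 bases were 7 and 52.7%, so those of Ikbke and Gm1966 had fewer CG dinucleotides than the median promoter. Short motifs were searched on both strands; none of them contains another. TATAAA, the TATA box, occurred in 13.6% of all these promoters and in none of the 4. GGGCGG, the GC box, occurred in 35.7% and, of the 4, in that of 2610028E06Rik. CACGTG, an E-box, occurred in 7.15% and in none of the 4. CCAAT occurred in 37.4% and, of the 4, in that of Tnn. A match or its absence describes the letters of the window only.

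At Ikbke (chromosome 1, 133151178 to 133176140, minus strand), the control-only segment ran from 133175601 to 133176400, 800 bp over the gene start. All 300 bases of the printed window would lie in it if the RefSeq start is the same base; the gene spans 24962 bp in the H3 tables and 25002 bp in RefSeq, so the start can differ slightly. The nearest susceptible segment was 1030 kb away and the nearest resilient one 3280 kb. For susceptible mice against controls, the authors' deposited table listed 2 H3 occupancy positions within 1000 bp of the segment, both Down, at 133174772 and 133177292, on either side of the start. The other occupancy tables listed none there. Both positions are on chromosome 1, where 98.2% of the 32791 positions of that table were Down.

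At Gm1966 (chromosome 7, 113739062 to 113788159, minus strand), the segment from 113787601 to 113788600 covered 559 bp of the gene and its start. The nearest susceptible segment was 369 kb away and the nearest resilient one 2070 kb. No H3 position of any table lay within 1000 bp. At Tnn, the segment from 162084201 to 162089600 of chromosome 1 was 5400 bp wide and began 494 bp upstream of the gene start at 162083706. The susceptible list held nothing within 5894600 bp of it, and the resilient list nothing within 11198200 bp. Susceptible against control listed 1 Down position inside it, at 162084692.

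Other gene starts lay close to a control-only segment. In 2610028E06Rik on chromosome 4, the segment from 125598401 to 125599400 had no H3 position of any table within 1000 bp, and a susceptible segment lay 53400 bp away. In Sbno2, which encodes a transcriptional co-regulator, it lay 447 bp inside the start, and at Uhrf1bp1 it ended 651 bp before the start. With a wider limit of 3000 bp, 12 control-only segments (3.75%) lay near a named gene start. The share of autosomal windows of 1 kb that did so was 2.21%, and among the 311 other control segments it was 6.75%. Of those 311 wider segments, 15 contained a named start. The median distance to the nearest named start was 116 kb for control-only segments and 86.7 kb for the others.

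Control-only segments were short and nearly uniform in width. Their median width was 800 bp, with quartiles of 800 and 1000 bp and a range of 200 to 5400 bp. Segments of 800 or 1000 bp made up 72.5% of them (149 and 83 of 320), against 9.0% of the control segments shared with another list (24 and 4 of 311). The shared segments had a median of 1200 bp and reached 76000 bp, and 32 of them were at least 10 kb wide, against 0 control-only segments. With 50.7% of the autosomal control segments, the control-only set covered 321.8 of 1733.4 kb, or 18.6% of their length. Segments found by the same rule in susceptible mice alone (660) and in resilient mice alone (268) had medians of 1000 and 800 bp, and 68.9% and 64.2% of them were 800 or 1000 bp wide.

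**Figure D1:**
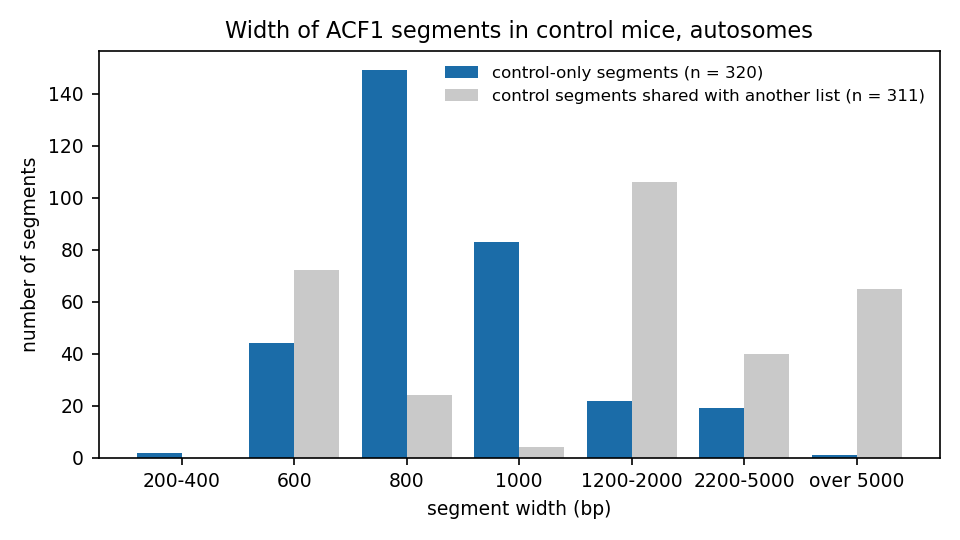
Number of autosomal control segments (vertical axis) by width in bp (horizontal axis, in classes), for 320 control-only segments (blue) and 311 control segments shared with another list (grey). The blue bars peak at 800 bp (149 segments) and the grey bars at 600 bp and at 1200 to 2000 bp (72 and 106 segments).

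The rule itself kept each control-only segment more than 1000 bp from the other lists. Distances were not taken for windows of 1 kb, so those given here are descriptions only. The median distance to the nearest susceptible or resilient segment was 664 kb (quartiles 177 and 1880 kb), 131 segments (40.9%) lay more than 1000 kb from both lists, and 62 (19.4%) lay within 100 kb of one. The nearest segment was susceptible for 209, resilient for 79 and equally far in both lists for 32; the susceptible list is the longest of the 3. Just inside the limit, the segment at 13572401 to 13573800 of chromosome 17 lay 1200 bp from a susceptible segment, that at 79845401 to 79846600 of chromosome 5 lay 1600 bp from one, and that at 143459601 to 143461200 of chromosome 4 lay 2400 bp from one. Just outside it, 1 control segment, from 39226801 to 39231800 of chromosome 7, lay exactly 1000 bp from a susceptible segment and was not kept. The other 310 segments that were not kept overlapped or touched a segment of another list: 232 of the 311 had both other lists within 1000 bp, 58 the susceptible list alone and 21 the resilient list alone. The median distance to the next control segment was 1230 kb for control-only segments and 412 kb for shared segments. Another control segment lay within 100 kb of 9.06% of the control-only segments and of 35.7% of the shared ones. No share of windows was taken, so neither value can be called high or low against the autosomes.

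**Figure D2:**
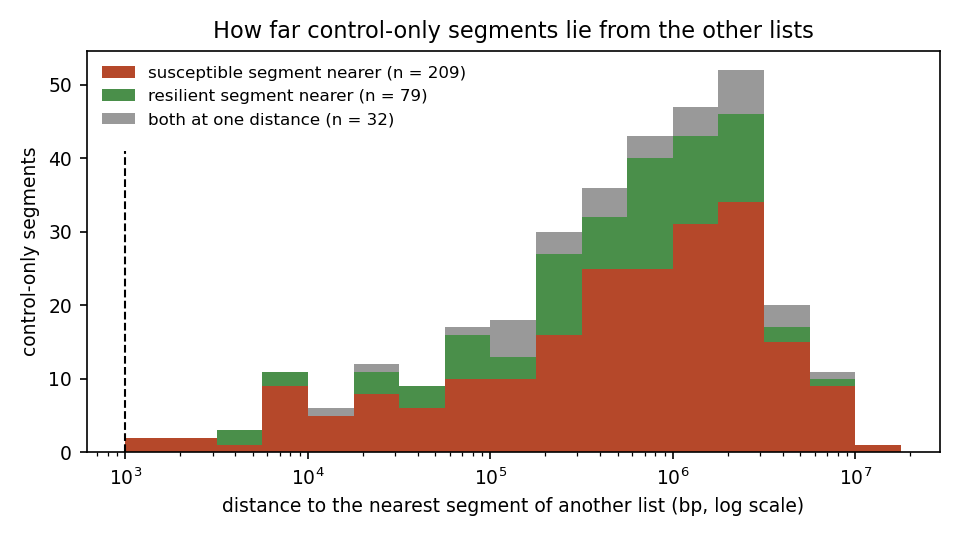
Number of control-only segments (vertical axis) by the distance in bp to the nearest segment of the susceptible or resilient list (horizontal axis, log scale); colours show which list was nearer, and the dashed line marks the limit of 1000 bp. Of the 320 segments, 258 lie beyond 100 kb and 7 within 5 kb.

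The segments were spread over all 19 autosomes at 1.29 per 10 Mb. Chromosome 17 held 22 (2.31 per 10 Mb), chromosome 4 held 34 (2.18), chromosome 5 held 29 (1.90) and chromosome 7 held 28 (1.84). Chromosome 18 had the fewest, 4 (0.441 per 10 Mb), although 17 control segments lay on it. As a share of all control segments, control-only segments ran from 23.5% on chromosome 18 to 69.2% on chromosome 10 (18 of 26), with a median of 53.1% over chromosomes.

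**Figure D3:**
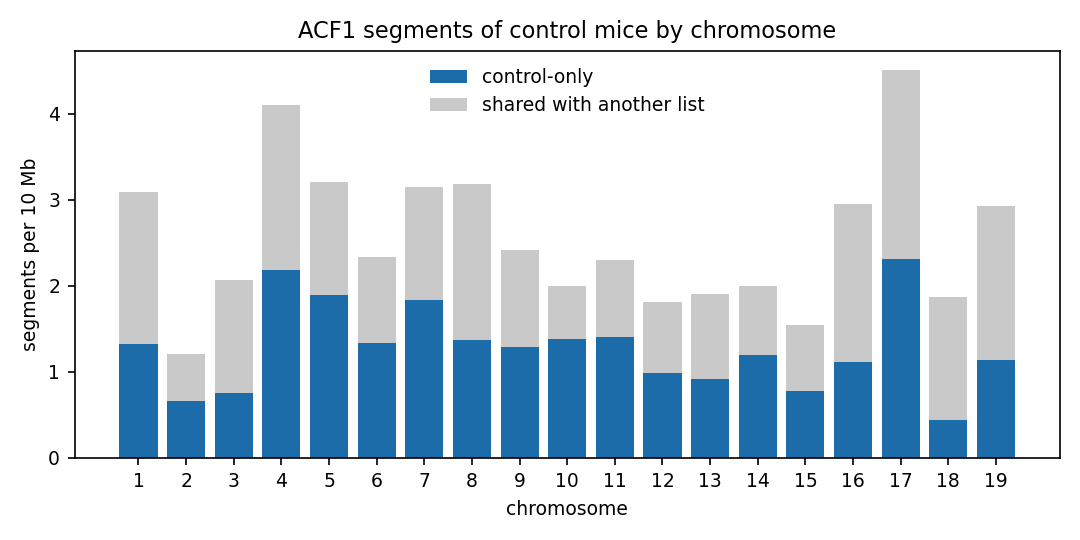
ACF1 segments of control mice per 10 Mb (vertical axis) on each autosome (horizontal axis), split into control-only segments (blue) and those shared with another list (grey). Chromosomes 17 and 4 have the highest blue bars, at 2.31 and 2.18 per 10 Mb, and chromosome 18 the lowest, at 0.441.

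Of the 320 segments, 65 (20.3%) overlapped a gene named in the H3 tables. The same was true of 26.2% of autosomal windows of 1 kb and of 25.1% of the shared control segments, so the share of control-only segments in named genes was not above that of the autosomes. The remaining 255 (79.7%) lay outside the named genes, at a median distance of 125 kb from the nearest, and 119 of them were within 100 kb of one. The 65 segments fell in 64 genes, 0.822% of those named. These genes had a median length of 128 kb, against 35.2 kb for all named genes. Any overlap counted, so a longer gene is more likely to hold a segment of any kind. Lengths were not taken for genes holding other segments, so this is no trait of control-only segments. The segments' midpoints lay at a median of 53.1% of the way from the gene start to its end. Of the 64 genes, 59 held no other segment of any list. The rule itself kept the other 2 lists more than 1000 bp from each segment. No such share was taken for genes holding other segments, so this count is a description only.

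Sbno2 was the gene with 2 control-only segments, at 79543801 to 79544600 and at 79564001 to 79565000 of chromosome 10, together 1800 bp. Pip5k1b, a lipid kinase gene on chromosome 19, had the most bases covered, 2000 bp from 24459601 to 24461600. Next came the oocyte-expressed NLR gene Nlrp4c with 1600 bp on chromosome 7 and Shisa6 with 1200 bp on chromosome 11. SHISA6 is an auxiliary subunit of AMPA-type glutamate receptors. None of these 4 genes carried a susceptible or resilient segment, and none had a listed H3 position within 1000 bp of the control-only segment.

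The gene lists used here are small, and their counts are read against the 0.822% of all named genes that held a control-only segment. No list was tested, and the background does not allow for gene length. The 4 list genes found, Lsamp (613 kb), Dpp6 (910 kb), Baz2b (226 kb) and Tek (136 kb), exceeded the median named gene (35.2 kb). Of the synaptic adhesion list, 2 of the 22 genes named on autosomes carried one (9.09%): Lsamp, encoding a neuronal surface protein of the limbic system, held 600 bp from 41957201 to 41957800 of chromosome 16, and Dpp6 held 1000 bp from 27632601 to 27633600 of chromosome 5. DPP6 is an auxiliary subunit of Kv4 potassium channels. Of the remodellers and histone modifiers, 1 of 11 did (9.09%), and it was Baz2b, a relative of the ACF1 gene Baz1a in the family of bromodomain proteins that partner ISWI ATPases. Its segment ran from 59944001 to 59944800 of chromosome 2, 18997 bp inside the gene start. The nearest susceptible segment was 581 kb and the nearest resilient one 4750 kb away. Baz1a itself held none. Of the endothelial markers, 1 of 4 did: Tek, the angiopoietin receptor gene, held 1000 bp. The count was 0 of 11 for cadherins, 0 of 21 for glutamate and GABA receptors, 0 of 19 for ion channels, 0 of 17 for growth factor and guidance genes and 0 of 4 for stress and immediate early genes. It was also 0 of 5 for markers of medium spiny neurons, 0 of 4 for cortical excitatory neurons, 0 of 2 for astrocytes and 0 of 3 for microglia. With 0.822% of all named genes as the background, a count of 0 in lists of this size says nothing particular of them. No oligodendrocyte marker was among the named genes.

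The next genes are outside the lists and are named as examples chosen after their values were seen; they stand for no theme. Grip1, which encodes a scaffold of AMPA receptors, held 1000 bp on chromosome 10, and a susceptible segment lay elsewhere in the gene, 90.0 kb from it. Cacnb2, encoding a calcium channel beta subunit, held 1000 bp at 14868 bp from its start. Mapk10, the gene of the neuronal kinase JNK3, and Cntnap5c, a contactin-associated protein gene, held 800 bp each. Ptprz1, a receptor phosphatase gene of glia, held 600 bp, as did Nkain2. Park2, the gene of the ubiquitin ligase parkin, held 800 bp at 90.8% of the way from start to end. Tnip1, which encodes an inhibitor of NF-kB signalling, and Ubash3a held 800 bp each, and Vtcn1 and Cd209c 1000 bp each. Of 64 named Vmn2r genes, which encode pheromone receptors of the vomeronasal organ, 4 held a segment (Vmn2r14, Vmn2r81, Vmn2r91 and Vmn2r111), or 6.25% against the 0.822% of all named genes, with no test. Vmn2r111 also carried a susceptible segment 7.0 kb away.

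Most of the widest control-only segments lay between genes. After that of Tnn came 3 of 4200 bp. That at 33828601 to 33832800 of chromosome 5 lay between Uvssa and Fgfr3, that at 12609801 to 12614000 of chromosome 7 between Zscan4b and Gm4224, and that at 63626001 to 63630200 of chromosome 2 between Kcnh7 and Grb14. The pairs of names are the nearest named genes, and other genes may lie between them. The next 2 were 3600 bp wide, at 88636001 to 88639600 of chromosome 14 and at 82454601 to 82458200 of chromosome 11. The seventh, of 3400 bp at 145294201 to 145297600 of chromosome 4, overlapped the last 140 bp of Gm13242 and lay 2600 bp from a susceptible and 4200 bp from a resilient segment. Segments of 3200 bp followed, at 7053801 to 7057000 of chromosome 1 and at 3009201 to 3012400 of chromosome 5, and then 1 of 2800 bp at 15004601 to 15007400 of chromosome 5. Of these 10, the nearest other list was 13200 bp away for the one on chromosome 7, 6800 bp for the last and 2600 bp for that at Gm13242, but 746200 bp for that between Uvssa and Fgfr3 and 11856200 bp for that at the start of chromosome 5. H3 occupancy positions lay inside 5 of the 10: that upstream of Tnn, all 3 on chromosome 5 and that on chromosome 14, where the position at 88637492 was Up in resilient mice against control. No such share was taken for windows or shared segments of like width. The position near Tnn is on chromosome 1, where 37.0% of windows of 1 kb had one within 1000 bp in susceptible against control.

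H3 immunoprecipitated after micrococcal nuclease digestion measures where nucleosomes sit, from libraries other than the ACF1 ones, so these values did not enter the choice of the segments. H3 occupancy positions were listed near few control-only segments. In any of the 3 tables, 44 of the 320 segments (13.8%) had a position within 1000 bp, 36 in 1 table, 8 in 2 and 0 in 3, and 276 had none. For comparison, 7.93% of autosomal windows of 1 kb, about the mean width of these segments, had one. Among shared control segments the share was 36.3%, but among the 100 of these that were at most 1000 bp wide it was 13.0%, close to the 11.9% of the 278 control-only segments of that width. Of the 42 control-only segments wider than 1000 bp, 11 (26.2%) had one. Among segments found in susceptible mice alone the share was 17.6%, and among those found in resilient mice alone 9.33%. No test was made of these differences, since regions of 1 library are not replicates. Among the 62 segments within 100 kb of another list the share was 14.5%, and among the 258 farther ones 13.6%. Of the 61 listings, 35 lay in intergenic DNA, 7 in gene deserts, 12 in gene bodies and 7 in promoter classes, as classed in the authors' deposited tables. The classes were not counted over all listed positions, so this placement is a description only.

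Susceptible against control set mice that avoided others after defeat against controls. It listed positions near 22 control-only segments (6.88%), against 4.91% of autosomal windows. Of the 22, 11 were on chromosome 1: 11 of its 26 segments had a position (42.3%), against 37.0% of the windows there, and all 16 positions were Down. Outside chromosome 1, 11 of 294 segments (3.74%) had one, against 2.13% of windows, and 4 of the 12 positions were Up (33.3%), against 40.2% of all positions of the table outside chromosome 1. The exact binomial 95% interval of that share, 9.92 to 65.1%, covers counting error only and includes the share of the whole table. It takes positions as independent, although some share a segment, and is no test.

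On chromosome 1 the named genes near these Down positions were Ikbke, Tnn, Elf3, Gpatch2 and Esrrg. Elf3, which encodes an epithelial ETS factor, held its segment from 137152601 to 137153400, with Down positions at 137152772 and 137154272. Esrrg, the gene of an orphan nuclear receptor, had 1 at 189477502, inside its segment. Outside chromosome 1, Down positions lay at Asb2, Deptor, Kank3 and upstream of the amino acid transporter gene Slc36a3. The 4 Up positions were all between named genes, at 23466322 and 71680452 of chromosome 17, 11561092 of chromosome 3 and 35882332 of chromosome 6.

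Resilient against control set defeated mice that did not avoid others against controls. It listed positions near 16 segments (5.00%), against 2.07% of autosomal windows, and none of the 16 was on chromosome 1. Of the 18 positions, 13 were Down and 5 Up (27.8% Up, exact binomial 95% interval 9.69 to 53.5%), against 38.3% Up in the whole table outside chromosome 1. Near the shared control segments of the same chromosomes, 9.48% of 116 positions were Up, and these positions lay near 47 segments. That share was 49.2% in susceptible against control and 19.6% in resilient against susceptible. Genes with a Down position in resilient against control were Deptor, Kank3, Per3, Rbm20 and Cd209c. At Per3, a circadian clock gene, the segment from 150404801 to 150405600 of chromosome 4 held it at 150405372. At Rbm20, a splicing factor gene, the position at 53809092 of chromosome 19 lay 708 bp outside the segment. Vmn2r14 had an Up position 321 bp from its segment.

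Resilient against susceptible set the outcomes of the same stress against each other. It listed positions near 14 segments (4.38%), against 1.93% of autosomal windows. Of 15 positions, 6 were Up (40.0%); without chromosome 1 they were 6 of 14 (42.9%, exact binomial 95% interval 17.7 to 71.1%), against 49.0% in the whole table outside chromosome 1. In both groups of this table the ACF1 state was absent from these segments. The position within a gene was Down at Vtcn1, which encodes an inhibitory ligand of T cells, at 100637862 of chromosome 3, inside the segment; another, Down, lay at 88831562 of chromosome 11, in the promoter class of 2210409E12Rik. The remaining 13 were between named genes.

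**Figure D4:**
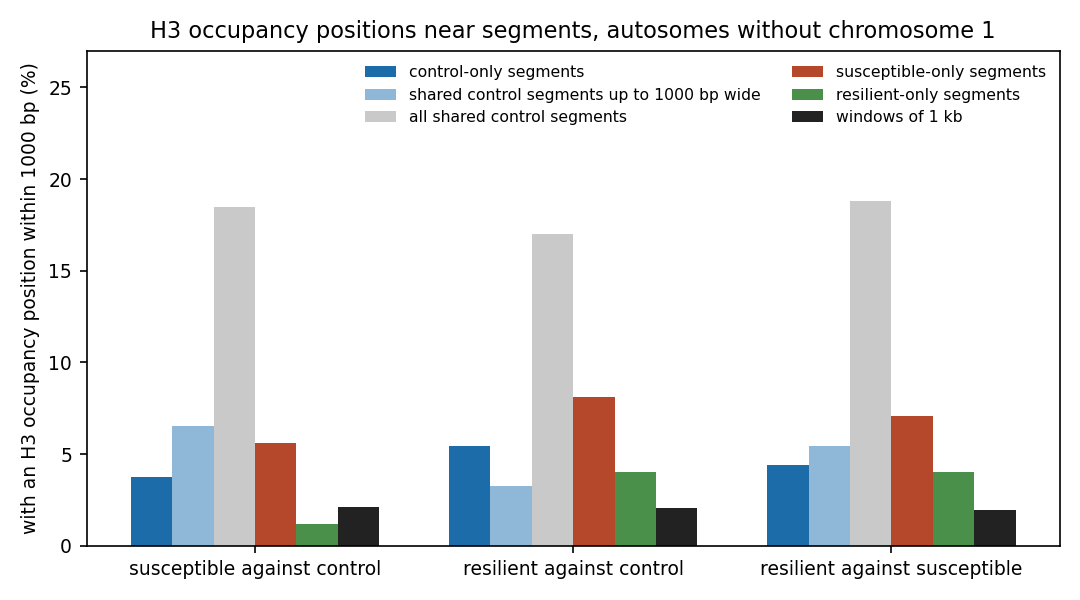
Share of segments, in percent (vertical axis), with an H3 occupancy position within 1000 bp in each of the 3 tables (horizontal axis), on autosomes without chromosome 1; colours stand for sets of segments and black for windows of 1 kb. Control-only segments reach 3.74, 5.44 and 4.42%, above the windows (2.13, 2.07 and 1.92%) and below all shared control segments (18.5, 17.0 and 18.8%). Shared control segments up to 1000 bp wide reach 6.52, 3.26 and 5.43%. Control-only segments of that width, not drawn, reach 3.53, 4.71 and 3.53%. Segments of susceptible mice alone reach 5.61, 8.09 and 7.1%, and those of resilient mice alone 1.2, 4.02 and 4.02%.

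**Figure D5:**
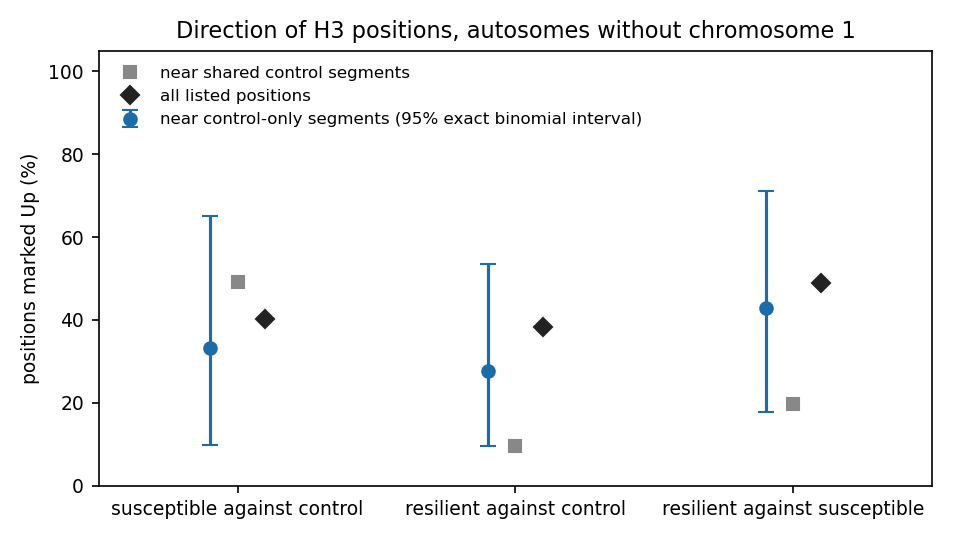
Share of H3 positions marked Up, in percent (vertical axis), in each table (horizontal axis) on autosomes without chromosome 1, near control-only segments (blue circles, with exact binomial 95% intervals), near shared control segments (grey squares) and among all listed positions (black diamonds). The blue intervals are wide and include the diamond in each table (40.2, 38.3 and 49.0%). They cover counting error only and take positions as independent, although some share a segment, so they are no test.

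Positions listed in 2 tables at the same base were 6, and 4 of them were Down in both susceptible and resilient mice against control. The comparisons share the control library, which alone could give such a pair. Kank3, which encodes an ankyrin-repeat protein of the cytoskeleton, held 1 at 33952592 of chromosome 17, inside its segment from 33952001 to 33953000 and 5124.5 bp from the gene start. Deptor, the gene of an inhibitor of the growth kinase mTOR, held 1 at 55037112 of chromosome 15, inside its segment from 55036401 to 55037400. At both genes the other lists were far away: 2240 kb for either list at Kank3, 1880 kb (susceptible) and 5300 kb (resilient) at Deptor. The third lay at 87695972 of chromosome 12, inside the segment from 87695201 to 87696000, 6066 bp from the start of Esrrb, an orphan nuclear receptor gene. The fourth lay at 13385952 of chromosome 17, 951 bp outside the segment from 13384201 to 13385000, which was 3200 bp from a susceptible segment near Smok2a. Of the positions that susceptible against control listed near control-only segments, these were 4 of 28, and 4 of 12 outside chromosome 1. Over all autosomes, 2595 of its 49282 positions were Down in both tables, and outside chromosome 1 2188 of 16491. The difference was not tested.

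The other 2 pairs went another way. At 11561092 of chromosome 3 the position was Up when susceptible mice were set against controls, and Down when resilient mice were set against susceptible ones. At 36287302 of chromosome 12, between Ahr and Agr3, it was Up in resilient mice against both other groups. A further 2 segments had positions at different bases in 2 tables. That near Slc36a3, from 54968001 to 54969600 of chromosome 11, was Down in susceptible against control at 54968072 and Up in resilient against susceptible at 54969382. That at 91105001 to 91106000 of chromosome 1 had 2 Down positions in susceptible against control and 1 Down position in resilient against susceptible.

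Nucleosome shifts, displacements of a nucleosome between groups, were listed near 9 control-only segments, with 10 listings and none within a named gene. The share of all listed shifts within named genes was not taken, so this placement is a description only. In susceptible against control 7 segments (2.19%) had one, against 0.439% of autosomal windows; outside chromosome 1 they were 5 of 294 (1.70%), against 0.0714%. Resilient against control listed 0 of 320, against 0.0701% of windows, and resilient against susceptible 2 (0.625%), against 0.0632%. Shared control segments had shifts in 16.7, 10.6 and 10.9% of cases. Among segments of at most 1000 bp the shares were 1.08, 0.0 and 0.36% for control-only and 5.0, 4.0 and 2.0% for shared segments; these differences were not tested. Of the 9 segments, 5 lay within 100 kb of a susceptible or resilient segment, as did 19.4% of all control-only segments.

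Shifts between susceptible and control mice, in the authors' deposited table, were positive, from 60 to 80 bp, at 96600612, 172998242 and 172999872 of chromosome 1 and at 13573052 of chromosome 17. They were negative, -80 bp at 3012932 of chromosome 5, -60 bp at 12612152 and -70 bp at 34815312 of chromosome 7, and -60 bp at 54817792 of chromosome 8. The authors' deposited table of resilient against susceptible gave -80 bp at 23466012 of chromosome 17 and -60 bp at 34825192 of chromosome 7. The last lay in a segment whose neighbour 9000 bp away, from 34815001 to 34815600, held a shift in susceptible against control; both lay between the secretoglobin genes Scgb2b27 and Scgb1b30.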

How the data were processed

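Chromatin of pooled accumbens punches was immunoprecipitated for ACF1 after shearing or for H3 after micrococcal nuclease digestion, amplified with 19 or 15 PCR cycles and sequenced with 100 bp reads, per the labels' protocols. CASAVA 1.8.2 and mm9 are named in the submitters' processing notes; the sources used here do not name the aligner or the programs behind the segments and H3 tables. Of 15 samples, 6 had files. The authors deposited state labels (ACF1), Up or Down marks (H3 occupancy) and shifts in bp (H3), with no counts or p-values. The pair of groups in an H3 table was read from its deposited name.

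Distances are the bases between intervals, and a gap of up to 1000 bp counted as near. Background shares were taken over all windows of 1 kb of the 19 autosomes, assembly gaps included. No test over groups was possible with 1 file per group, and none over regions was made. The helpers were tested on simulated intervals. Tables were read with pandas 2.3.3 and figures drawn with matplotlib 3.10.9, under Python 3.11.15 with scipy 1.17.1 for the exact intervals and numpy 2.4.6. The segments, gene lists and rules were chosen with earlier results of these data known. Genes named were the 10 with most bases covered (ties at 1000 bp left out), those with 2 segments or on a list; segments named were the 10 widest, those with H3 positions in 2 tables or a shift, and those at the limit. Genes named beside an H3 position listed in a single table fall outside this rule and were chosen after their values were seen. Sequence content of the segments needs a genome of the files' build, which was not used here.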

Additional observations from a re-analysis of the deposited data

How the results depend on the processing

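The 12 counts and shares were recomputed under 2 to 6 alternatives each, giving 45 values. Of these, 32 moved a count by no more than 1.5 times or kept a share within its exact binomial interval. Membership was stable to the distance rule (321 segments at 0 bp, 313 at 5000 bp), but with segments of at least 1000 bp only in all lists 134 control-only segments were found, since most are narrower. Without chromosome 1, susceptible against control listed positions near 11 segments, and 33.3% of the 12 positions were Up. With positions inside the segment only, 11, 9 and 8 segments had one in susceptible against control, resilient against control and resilient against susceptible. Within 5000 bp they were 55, 36 and 32, and 14 and 1 segments had a shift in susceptible and in resilient against control. Shares of windows were not taken at these other distances, so these counts have no background and describe the setting only. Leaving out segments within 100 kb of another list, an alternative added after seeing the data, left 9 of 258 (3.49%) in resilient against susceptible. The main setting gave 14 of 320 (4.38%). The positions Down in both defeated groups were 8 within 5000 bp and 3 without those segments. No paired analysis was possible because each group had 1 file. Leaving out replicates was not possible either, and the unknown depth limits every count.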
